A study of Mus musculus with 42 samples.

Results

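Among the H3K27ac regions of wild-type (WT) mouse macrophages, 1280 of 58679 were present after 18 h of lipopolysaccharide (LPS) and at no earlier time. LPS is a component of the bacterial outer membrane that activates macrophages through Toll-like receptor 4. The 1280 regions were chosen from the H3K27ac region lists of the 9 WT libraries: the lists were merged on overlap, and a merged region was kept if it was found in all 3 WT 18 h libraries and in none of the 6 WT libraries at 0 h and 1 h. Presence at 18 h and absence before it in WT H3K27ac is therefore how the regions were picked and not a result. Everything tested below comes from libraries that the choice did not use, which are the H3K27ac libraries of Nur77-deficient (KO) cells and the RNA polymerase II (Pol II) libraries of both genotypes.

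H3K27ac is acetylation of lysine 27 on histone H3, a mark placed by the coactivators p300 and CBP at active promoters and enhancers. Enhancers are stretches of DNA, often far from the gene they act on, where transcription factors gather and from which Pol II can itself transcribe short RNAs. In macrophages the factor PU.1 keeps many enhancers open, and LPS acts first through NF-kB and AP-1 and later, through secreted interferon beta, on STAT and IRF factors that bind interferon response elements. Some enhancers carry no mark in resting cells and gain it only when the cells are stimulated.

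The cells were bone marrow-derived macrophages, grown for 7 days in L929-conditioned medium from male mice of 6 to 12 weeks. The paper names the C57Bl6/J strain only for the Cre-carrying parents of the line. WT mice were littermates of the KO mice. In KO the Nur77 gene (Nr4a1, a nuclear receptor) was deleted in the whole body by crossing a floxed allele to a CMV promoter-driven Cre, after which the line was bred free of Cre, although the sample label for the KO genotype reads only cre. Cells of each genotype were left without LPS (0 h) or given 100 ng/ml of it for 1 or 18 h, and each of the 6 groups had 3 H3K27ac libraries, 3 Pol II libraries and 1 input library made without antibody. Nothing in the labels ties a replicate to an animal, so p-values measure the spread between these libraries, which may be technical.

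Depth differed between the genotypes for H3K27ac, at 13.5 to 31.1 M tags per library in WT and 23.6 to 55.4 M in KO, and was similar for Pol II at 21.7 to 36.1 M. Replicate 1 of the KO cells stood apart in the 1 h group and again in the 18 h group, with correlations across regions of 0.911 to 0.920 with the other replicates of its group, against 0.993 and 0.994 between those others. The cells carried the markers of their label: all 10 macrophage markers had H3K27ac at their start and Pol II over the gene in every WT library. Of 31 markers of other cell types, the fibroblast genes Col1a1, Dcn and Pdgfra and the T cell gene Cd3e were at 0 in all WT groups, and the summed H3K27ac of the 31 was 1454 to 1524 tags at 0 h and 1660 to 1833 at 18 h, beside 7305 to 8115 and 9006 to 9327 for the macrophage markers. Most of the former sum lay at Pecam1 (mean 766.3 tags at 0 h), Xcr1 (305.2) and Ms4a1 (277.0). Over Nr4a1, Pol II at 0 h had a mean of 195.3 ± 11.3 tags in WT and 78.05 ± 8.96 in KO (SD, n = 3), so it was not absent from KO. At 18 h it was 7.46, 5.98 and 0 tags in the WT replicates and 0 in all KO replicates. Pol II over a whole gene includes sequence outside the deleted part and does not check the deletion.

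A value is the number of tags in a library's regions, scaled to 10 M tags of that library and called normalized tags here. A value of 0 means that no region passed the search there, not that no reads were present. A group at 0 in all its libraries shows no spread, which lowers the SEs and p-values given below for such regions. Most of the 1280 regions were weak. In WT at 18 h their mean was between 6.48 and 391 normalized tags, with a median of 19.2 and quartiles at 13.3 and 33.0. Only 50 were above 100 tags and 119 were below 10, and the median coefficient of variation between the 3 replicates was 20.8%. They were also short, with a median width of 1442.5 bp (528 to 7277 bp), against 2454 bp for the 42170 WT regions that were reproducible, which means found in all 3 libraries of at least 1 WT group, and 3445 bp for the 23883 found in all 9 libraries. Members at the edge of the choice looked like the regions just outside it: the 541 regions found in all 3 WT 18 h libraries and in 1 of the 6 earlier ones had a median of 19.1 tags at 18 h, and the 996 found in 2 of 3 WT 18 h libraries and in no earlier one had a median of 9.82 tags, near the 8.86 tags of the 128 weakest members.

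Sequences of a few regions are shown first, because a short interferon-type motif was found in a larger share of the 1280 regions than of other H3K27ac regions. The motif was searched on both strands as GAAANNGAAA, the spaced repeat found in interferon-stimulated response elements, in the 500 bp around the middle of each region. The lines below are RefSeq sequence of build GRCm38 (mm10), plus strand, 5′ to 3′, with every match to the motif on either strand in capitals. The first pair lies upstream of Usp18, and the Kmt2c line shows matches inside a run of a short purine repeat.
Usp18 distal (chr6:121237954-121238074): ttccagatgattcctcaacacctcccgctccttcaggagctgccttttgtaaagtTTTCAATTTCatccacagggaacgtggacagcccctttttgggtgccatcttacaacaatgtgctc
Usp18 proximal (chr6:121241719-121241839): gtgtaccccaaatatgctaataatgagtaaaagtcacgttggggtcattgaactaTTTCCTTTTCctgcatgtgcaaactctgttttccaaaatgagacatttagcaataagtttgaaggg
Kmt2c intron (chr5:25455329-25455449): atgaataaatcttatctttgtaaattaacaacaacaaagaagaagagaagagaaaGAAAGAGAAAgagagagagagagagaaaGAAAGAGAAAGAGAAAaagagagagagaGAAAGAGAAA

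The motif was present in 301 of the 1280 regions (23.5%), against 10.0% of 42143 reproducible WT regions with sequence, 8.88% of those found in all 9 libraries, 15.1% of the 1541 regions present only at 1 h and 21.6% of 719 regions that appeared at 1 h and were still found at 18 h. When only bases outside soft-masked repeats were searched, 8.20% of the 1280 regions held the motif against 4.38% of reproducible regions, 4.67% of those present only at 1 h and 9.74% of those kept from 1 h to 18 h. At least 3 matches, the pattern of the Kmt2c sequence, occurred in 81 of the 1280 regions (6.33%), in 4.54% of those present only at 1 h, in 3.76% of those kept from 1 h to 18 h and in 0.61% of reproducible regions. Soft-masked bases made up a mean of 29.9% of the windows of the 1280 regions, 24.2% and 27.5% of those of the 1 h sets in the same order, and 20.3% of those of reproducible regions.

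The shares of the other motifs were nearer to those of reproducible regions. The AP-1 site (TGAGTCA or TGACTCA) was in 15.2% of the 1280 regions and 15.1% of reproducible regions. The gamma-activated sequence of interferon-induced genes (TTCNNNGAA) was in 15.2% against 14.6%. The NF-kB site (GGGAA, any base, then TTCC, or GGGA, any base, then TTTCC) was in 1.33% against 1.41%, whereas it was in 4.74% of the regions present only at 1 h and 4.45% of those kept from 1 h to 18 h. The site of PU.1 (GAGGAAGT) was in 5.23% against 7.81%, the palindrome of C/EBP factors (TTGCGCAA) in 0.156% against 0.140%, and the monomer site of Nur77 (AAAGGTCA) in 2.34% against 2.57%. Promoters are fewer among the 1280 regions, and outside promoters the AP-1 site was in 15.5% against 18.2%, the PU.1 site in 5.25% against 9.17% and the interferon-type motif in 24.2% against 11.5%. These shares describe letters only, and the base composition differed too, with a median GC content of 43.8% in the 1280 regions and 46.2% in reproducible regions.

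The 1280 regions lay mostly away from gene starts. A promoter, taken as the 1000 bp either side of a GENCODE vM21 protein-coding gene start, was touched by 118 of them (9.22%), an exon by a further 185 (14.5%) and an intron by 467 (36.5%), and 510 (39.8%) were intergenic. Of the regions found in all 9 WT libraries 46.2% touched a promoter, and of all reproducible regions 31.2%. Regions present only at 1 h (11.4% at promoters) and those kept from 1 h to 18 h (11.5%) had a place much like that of the 1280. The median distance from the middle of a region to the nearest gene start was 25574 bp, against 11879 bp for regions found in all 9 libraries, and 16.6% of the 1280 lay more than 100 kb away. Another WT H3K27ac region was within 5 kb of 53.1% of them, compared with 61.4% of reproducible regions. The regions were spread over chromosomes 1 to 19 and X, from 2.13% of the reproducible regions of chromosome X to 4.06% of those of chromosome 16.

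**Figure D1:**
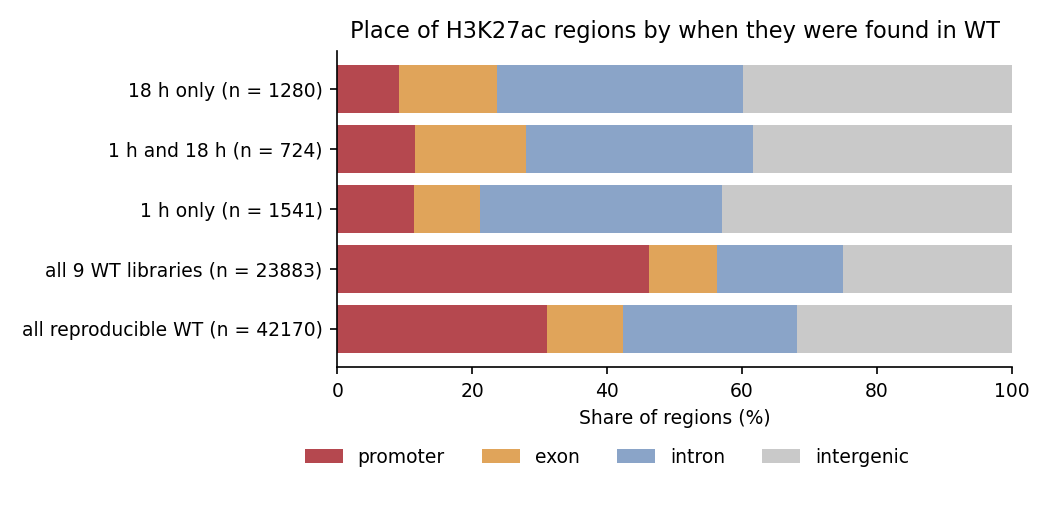
Share of regions (%, x axis) that touched a promoter, an exon, an intron or none of these, for WT H3K27ac regions grouped by when they were found (y axis, with the number of regions). Promoters make up 9.22% of the regions present only at 18 h and 46.2% of those found in all 9 WT libraries.

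The nearest genes numbered 1120, of which 990 had a single region, 105 had 2, 20 had 3 and 5 had 4. The interferon response list of 20 genes had 4 that were nearest to a region (Ifit1, Mx1, Cmpk2 and Usp18), or 20%, against 5.11% of the 21897 protein-coding genes. Among genes of amino acid and redox metabolism nearest to a region were Slc7a2, which imports arginine, Ass1, which helps to rebuild it from citrulline, and Gclm, a subunit of the enzyme that starts glutathione synthesis. Among 15 genes of matrix remodelling and hypoxia there were 3 (Thbs1, Vegfa and Slc2a1), among 10 macrophage markers 2 (Adgre1 and Cebpb), and among the 20 late LPS cytokines and effectors only Nos2, with 3 regions. None of the 12 early LPS genes, the 18 AP-1 factor genes, the 3 NR4A receptor genes or the 10 cell cycle genes was nearest to a region. Nearness in the genome does not show which gene a region acts on, and Ncr1, Col1a2 and Cdh5, which mark other cell types, were nearest to 4 of the regions while Pol II over Ncr1 and Col1a2 was at 0 in every library.

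The KO libraries were the first independent look at the same places. At 18 h the KO replicates held 1027, 1209 and 1170 of the 1280 regions, and 949 (74.1%) were found in all 3 of them. These are 80.2%, 94.5% and 91.4% of the 1280, where the same libraries held 81.0%, 80.6% and 77.4% of all reproducible WT regions, so replicate 1 was near that background. Before LPS the KO replicates held 86, 101 and 142, and after 1 h of it 106, 145 and 239, or 6.72% to 18.7%, against 80.9% to 88.2% of all reproducible regions. A total of 429 regions were found in at least 1 KO library at 0 h or 1 h, only 4 in all 6, and 616 were found in all 3 KO 18 h libraries and no earlier KO library. Median levels at 18 h were 19.5, 24.2 and 19.7 normalized tags in the KO replicates, beside 18.45, 20.5 and 20.9 in the WT replicates from which the regions were chosen. Applying the same choice to the KO libraries gave 1354 regions, and 41.9% of the WT set overlapped them while 39.1% of the KO set overlapped the WT set.

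**Figure D2:**
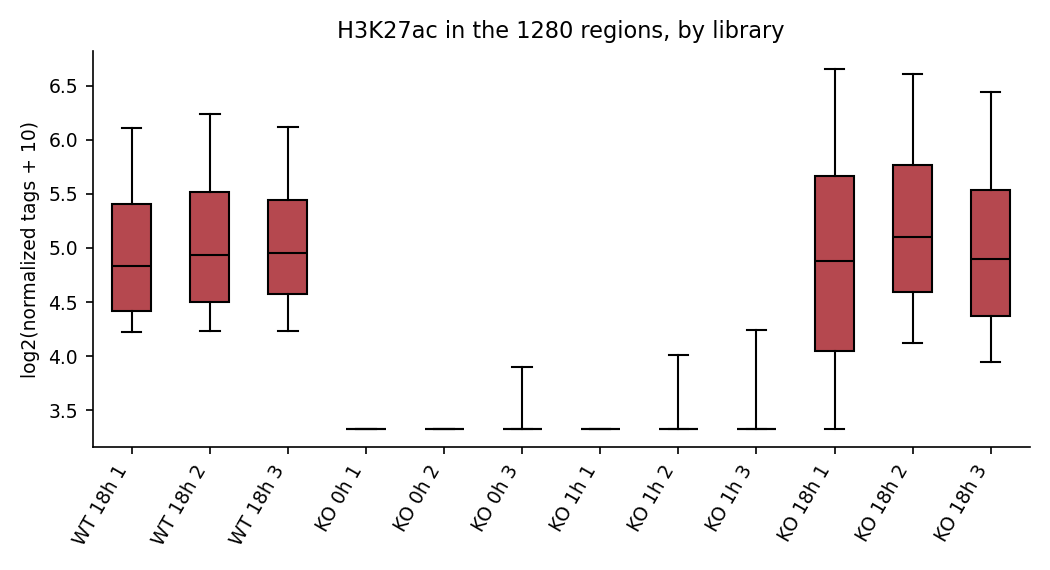
H3K27ac of the 1280 regions as log2(normalized tags + 10) in each WT 18 h library and each KO library; boxes show the quartiles with the median as a line, and whiskers the 10th and 90th percentiles. The medians of the KO 0 h and 1 h libraries lie at 0 tags, and those of the KO 18 h libraries at 19.5, 24.2 and 19.7 tags.

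Within KO, H3K27ac rose from 0 h to 18 h at 930 of the 1280 regions (72.7%) and fell at none. Across all 42170 reproducible WT regions 12.5% rose and 25.5% fell in the same test, a linear model in limma on log2(normalized tags + 10) with a call at a Benjamini-Hochberg adjusted p under 0.05 and a log2 change beyond 1 in size. The median log2 change was 1.56 for the 1280 regions and -0.28 for all regions. From 1 h to 18 h H3K27ac rose at 809 regions (63.2%) and fell at none, where 9.8% of all regions rose and 16% fell, with median log2 changes of 1.47 and -0.15. Without the KO 18 h replicate that stood apart 980 regions rose from 0 h (76.6%, against 13.1% of all regions) and 953 from 1 h (74.5%, against 12.1%). Without the KO 1 h replicate that stood apart 853 rose from 0 h (66.6%, against 12.5%) and 787 from 1 h (61.5%, against 10.4%). In each of these fits 1 region fell from 1 h to 18 h. At 203 of the 1280 a KO region also covered a neighbouring WT region, and its tags were shared out by length. With those left out, 761 of 1077 regions (70.7%) were called higher at 18 h than at 0 h, against 11.2% of all regions.

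The 10 regions with the highest H3K27ac in WT at 18 h ranged from a mean of 230.9 to 391.4 normalized tags, and 9 of them were found in all 3 KO 18 h libraries. All 10 also had a region in the WT 18 h input, at 39.6 to 80.42 tags, where the other 5 inputs had 0 to 38.29, and the part of this in the H3K27ac values was not tested. Over the whole set the WT 18 h input had a region at 677 of the 1280 (52.9%). The highest lay in an intron of Asb3, 91557 bp from the start of Chac2 (chromosome 11, 31076042 to 31079773). Its H3K27ac was 375.8, 415.1 and 383.3 tags in the WT 18 h replicates. In KO it was 0 in all 6 libraries at 0 h and 1 h and 163.9, 447.3 and 438.7 at 18 h, a log2 change of 5.04 ± 0.35 (SE) against 0 h (adjusted p = 1.1e-05). The KO replicates at 18 h spread from below to above the WT range, and the low one is the replicate that stood apart.

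A region 45474 bp upstream of Nos2, the gene of inducible nitric oxide synthase (chromosome 11, 78871842 to 78878784), had 341.5, 313.6 and 320.6 tags in WT at 18 h. In KO it rose from 0 in every library at 0 h to 637.4, 341 and 328 tags, a log2 change of 5.41 ± 0.26 (adjusted p = 2.5e-06). The other regions of this rank lay within Slc35f5, in an intron of Kmt2c, a histone methyltransferase of enhancers, within Trim12c, within Rasgrf1 with Ctsh as the nearest start, at the promoter of Trpm7 with Usp50 as the nearest start, and in intergenic DNA nearest to Jarid2 and Prkcq. Their KO log2 changes from 0 h to 18 h ran from 4.36 ± 0.48 (Trim12c) to 5.60 ± 0.26 (Jarid2). The last of the 10, nearest to Vrk2, was in no KO library and is described further on. KO regions that also covered a neighbour entered the values near Nos2 and Jarid2.

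At 18 h the KO mean lay within a factor of 2 of the WT mean, on the log2(tags + 10) scale, at all but 79 of the 1280 regions. It was more than 1 log2 unit higher in KO at 54 and more than 1 log2 unit lower at 25, and the median difference was 0.054. These differences carry no test, because the WT 18 h values chose the regions. Every KO replicate was above every WT replicate at 164 regions (12.8%, against 6.29% of all reproducible regions) and below it at 112 (8.75%, against 15.7%), from which nothing is read for the same reason. Of the 54 with higher values in KO, 51 (94.4%) were places where a KO region also covered a neighbouring WT region, against 15.9% of all 1280, so these values include tags shared out from a wider interval. None of the 25 with lower values was such a place. Among the regions named here the KO values were furthest above the WT values at Cmpk2, Ccrl2 and Mx1. The region within Cmpk2, a mitochondrial nucleotide kinase induced by interferon, had 23.61, 28.9 and 23.4 tags in WT and 349.8, 554.1 and 548.5 in KO, with no overlap. The region within Mx1, an antiviral GTPase, had 54.2, 48.83 and 73.4 tags in WT and 66.53, 598.4 and 577.7 in KO, so that 1 KO replicate fell in the WT range. The region 10129 bp upstream of Ccrl2, a chemokine-binding receptor, had 65.1, 47.3 and 43.2 tags in WT and 505.9, 734.6 and 751.5 in KO. All 3 of these are among the 51.

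**Figure D3:**
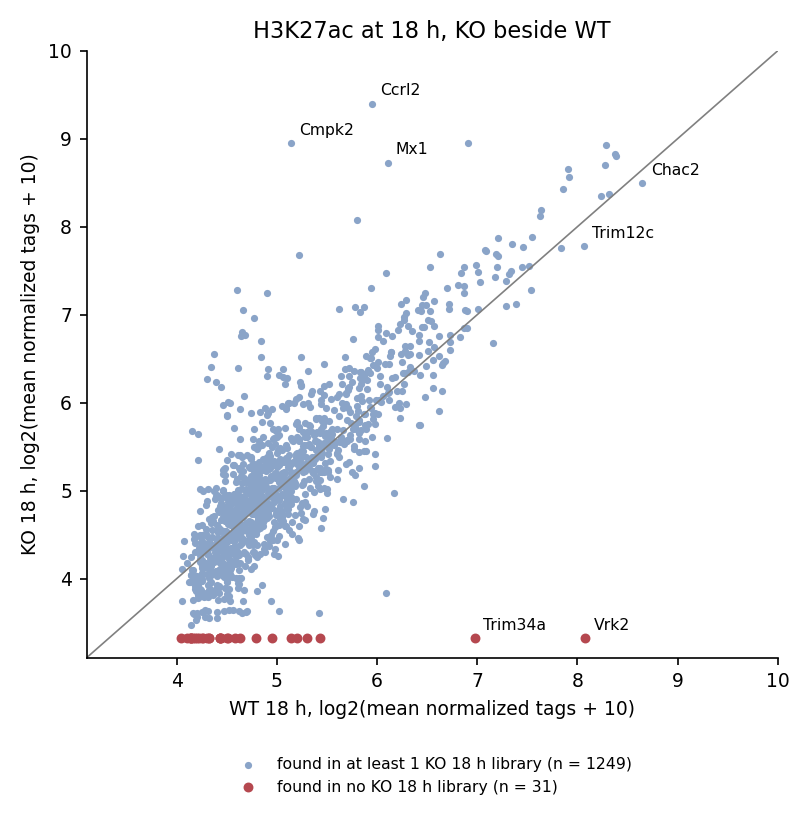
Mean H3K27ac at 18 h of each of the 1280 regions in KO (y axis) and WT (x axis), both as log2(mean normalized tags + 10) over 3 libraries; the line marks equal values. The 31 regions found in no KO 18 h library lie along the bottom, where those nearest to Vrk2 and Trim34a have the highest WT values.

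Only 31 of the 1280 regions (2.42%) were found in no KO 18 h library. Most of these were weak in WT, with a median of 11.5 tags, but a pair stood out. The region 117630 bp upstream of Vrk2, a serine/threonine kinase gene (chromosome 11, 26709679 to 26713580), had 226.1, 281.7 and 271.8 tags in WT at 18 h and 0 in all 9 KO libraries. The region within Trim5, with Trim34a as the nearest start (chromosome 7, 104263835 to 104266194), had 113.7, 128.3 and 106.4 tags in WT at 18 h and 0 in all 9 KO libraries. Both genes of the Trim locus belong to a family of ubiquitin ligases with antiviral members, and the members lie close together as near copies. Whether reads were split between them was not tested. The next highest were intergenic regions nearest to Mtmr14 (40.9, 17.5 and 41.1 tags in WT), Zfp386 (33.3, 28.3 and 26.8, with a region in all 6 inputs as well) and Msr1, the scavenger receptor A gene (23.6, 30.7 and 26).

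Pol II, measured with another antibody, gave the second independent readout. Of the 1280 regions, the WT replicates without LPS had Pol II at 287, 311 and 302. After 1 h of LPS the WT numbers were 249, 230 and 238, and after 18 h they were 580, 632 and 596. The KO replicates without LPS had Pol II at 270, 277 and 298 regions. After 1 h the KO numbers were 240, 249 and 230, and after 18 h they were 688, 728 and 697. At 18 h the KO replicates were all above the WT replicates, while the share of all reproducible regions with Pol II was 59.4% to 61.4% in WT and 58.8% to 60.25% in KO. In the 3 WT 18 h libraries 503 regions (39.3%) had Pol II throughout, and 203 of them had none in WT at 0 h. No Pol II was found in any of the 18 libraries at 391 regions (30.5%), of which 236 were intergenic. Pol II in all 3 WT 18 h libraries was found at 63.6% of the promoter members, 65.4% of the exonic ones, 40.0% of the intronic ones and 23.5% of the intergenic ones, against 85.7%, 64.1%, 44.0% and 33.2% of reproducible regions at the same kinds of place.

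**Figure D4:**
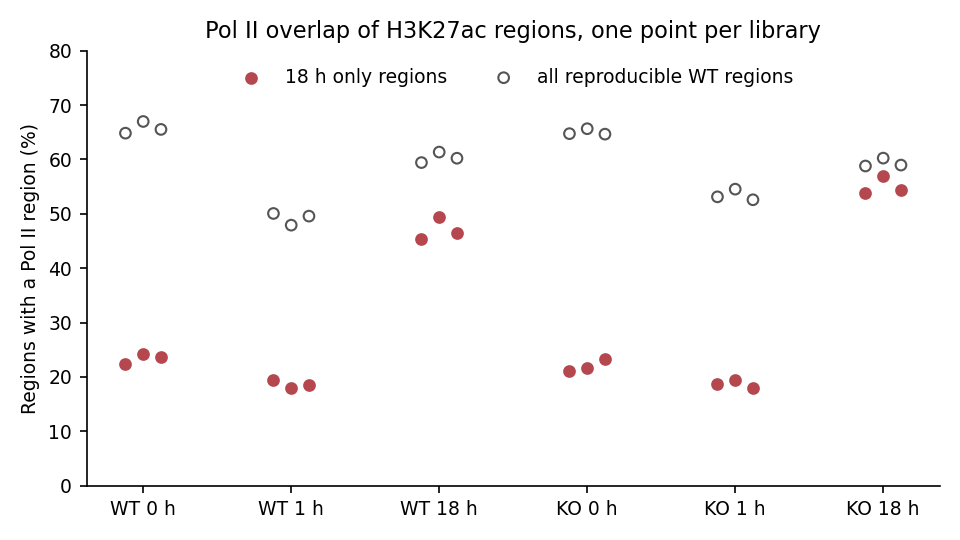
Share of regions (%, y axis) that overlapped a Pol II region in each of the 3 libraries of a group (x axis), for the 1280 regions present only at 18 h (filled) and for all reproducible WT regions (open). The filled points rise from 22.4% to 24.3% in WT at 0 h to 45.3% to 49.4% at 18 h, and in KO from 21.1% to 23.3% to 53.8% to 56.9%.

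From 0 h to 18 h in WT, Pol II rose at 268 of the 1280 regions (20.9%) and fell at 14 (1.09%), where 10.1% of all reproducible regions rose and 11.3% fell. In KO it rose at 386 (30.2%) and fell at 18 (1.41%), where 11.1% of all regions rose and 14.4% fell. From 1 h to 18 h in WT, 307 regions (24%) rose, the same share as the 24% of all regions, whereas 23 (1.8%) fell against 8.26% of all regions. Centring each library on its median changed that split to 178 higher and 51 lower, so that 13.9% of the 1280 and 14.5% of all regions were higher, and 17.9% and 27.5% were called in either direction. The shares that rose were not alike among regions with a mean of at least 5 tags over the 18 Pol II libraries. Of the 495 members at that level 288 rose (58.2%, against 36.2% of all such regions) and 21 fell (4.24%, against 12.5%). Many of the regions lay under Pol II domains far wider than themselves: 410 were under a Pol II region more than 2 times their own width in at least 1 library. Without these, 104 of 870 regions (12.0%) rose in WT from 0 h to 18 h and none fell, against 7.67% of all regions outside such domains that rose.

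The 6 largest rises in WT from 0 h to 18 h without overlap between replicates were at a pair of regions within Nos2, at the Cmpk2 region and at those nearest to Gbp7, Fam3b and Ccrl2. At a region within Nos2, 30002 bp from its start (chromosome 11, 78948101 to 78953478), Pol II was 0 in all 3 WT replicates at 0 h, 30.07, 6.9 and 47.15 tags at 1 h and 1610, 1568 and 1433 at 18 h, a log2 change of 7.27 ± 0.28 (adjusted p = 3.6e-12). A neighbouring region of Nos2 rose by 6.75 ± 0.17. The Cmpk2 region went from 32.93, 45.91 and 33.63 tags to 1940, 3388 and 3349, a log2 change of 5.90 ± 0.18. At a region within Gbp5, an interferon-induced guanylate-binding GTPase, with Gbp7 as the nearest start, Pol II was 0 at 0 h, 716.7, 708 and 738.6 tags at 1 h and 522.9, 514.2 and 525.4 at 18 h. At the regions nearest to Fam3b and Ccrl2 Pol II at 1 h was 442.7 to 458.0 and 355.3 to 410.8 tags in WT. The absence of WT H3K27ac at 1 h is part of the choice, so no order of the marks can be read from WT. In KO at 1 h H3K27ac was 0 in all 3 libraries at the Gbp7 and Fam3b regions, and 14.28, 11.7 and 361.5 tags at the Ccrl2 region. All 6 of these regions lay under Pol II domains more than 2 times their own width.

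Several of the regions with the highest H3K27ac had no Pol II before 18 h. At the Asb3 intron region nearest to Chac2 it was 0 in all 6 WT libraries at 0 h and 1 h and 113.3, 121.5 and 129.3 tags at 18 h, a log2 change of 3.71 ± 0.10 (adjusted p = 3.7e-14). At the region upstream of Nos2 it was 0 before and 82.7, 97.9 and 62 tags at 18 h (3.16 ± 0.12). The region nearest to Ctsh, a lysosomal protease gene, had 106, 77 and 85.2 tags at 18 h and 0 before, and those nearest to Prkcq and Jarid2 rose likewise from 0, by 3.29 ± 0.10 and 2.43 ± 0.10. None of these 5 was under a Pol II region more than 2 times its width. The first Usp18 region printed above, 7694 bp upstream of this deubiquitinase-like brake on interferon signalling, went from 0 at 0 h and 1 h to 215.4, 206.3 and 229.5 tags, under a Pol II domain wider than itself.

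Pol II fell from 0 h to 18 h at 14 regions. The clearest was at an exon of Arhgef7, with Tex29 as the nearest start, where Pol II was 102.4, 134.3 and 119 tags at 0 h and 0 in all WT libraries at 1 h and 18 h (log2 change -3.68 ± 0.10, adjusted p = 1.2e-13). H3K27ac at this region was nonetheless found at 18 h, at 30.3, 33.7 and 35 tags in WT. Regions nearest to Zbtb37, Gripap1 and Tmem42 fell by 2.14, 1.98 and 1.92 on the log2 scale. Of the 14, 10 touched a promoter or an exon. The regions named for a fall all lay under Pol II domains more than 2 times their own width. Without regions under such domains Pol II fell at none of 870.

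Over whole genes, Pol II rose from 0 h to 18 h in WT at 253 of the 1120 nearest genes (22.6%) and fell at 103 (9.2%). Of all 21897 protein-coding genes, 7.71% rose and 8.61% fell. From 1 h to 18 h Pol II rose at 472 of the nearest genes (42.1%) and fell at 73 (6.52%), against 25.2% and 5.52% of all genes. Centring each library on its median turned this split from 1 h to 18 h into 253 higher and 175 lower, so that 38.2% of the nearest genes and 24.3% of all genes were called, and 22.6% and 11.0% were higher. In KO from 0 h to 18 h Pol II rose at 275 (24.6%) and fell at 133 (11.9%), against 7.76% and 11.1% of all genes. A mean of at least 5 tags was reached by 918 of the nearest genes. Of these, 27.3% rose and 10.8% fell in WT from 0 h, against 12.9% and 14.1% of all such genes. From 1 h in WT 51.1% rose and 7.95% fell, against 42.5% and 9.25%. When Pol II was counted only within 500 bp of the gene start, the WT rise from 0 h was called at 61 of the nearest genes (5.45%) and 2.16% of all genes. All 4 interferon genes on the list rose (for example Ifit1, from a mean of 45.04 ± 1.72 to 3290 ± 200 tags in WT), as did 19 of the 20 genes of the interferon list in all, whether nearest to a region or not. The metabolic genes Ass1, Slc7a2 and Gclm rose, with log2 changes of 4.69, 3.49 and 3.08. Socs1, a feedback inhibitor of cytokine signalling, and Cd86, a costimulatory ligand, rose by 2.78 and 1.81. Vegfa, Thbs1 and Slc2a1 were not called, with log2 changes of 0.26, 0.21 and 0.51.

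At 18 h Pol II differed between the genotypes at 116 of the 1280 regions. It was higher in KO than in WT at 105 (8.2%) and lower at 11 (0.859%), where 1.38% of all reproducible regions were higher and 1.19% lower. The genotype by LPS interaction, the change from 0 h to 18 h in KO minus that in WT, was positive at 102 regions (7.97%) and negative at 7 (0.547%), beside 1.42% and 1.37% of all regions. Of the 105, 54 were intergenic, 36 intronic and 6 at promoters, and 97 were found in all 3 KO 18 h H3K27ac libraries. Their median Pol II was 2.14 tags in WT and 24.6 in KO at 18 h, and their median H3K27ac was 41.7 in WT and 63.2 in KO. Among the 495 members with a mean of at least 5 tags over the 18 libraries 46 were called higher (9.29%, against 1.61% of all such regions) and 11 lower (2.22%, against 1.76%). With a pseudocount of 1 the numbers were 182 (14.2%, against 2.13%) and 24 (1.88%, against 2.31%). Leaving out regions under wide Pol II domains gave 86 higher (9.89%, against 1.42%) and 1 lower (0.115%, against 0.973%).

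At an intergenic region nearest to Abca13 (chromosome 11, 9816578 to 9819125), Pol II was 0 in all 9 WT libraries and in KO at 0 h and 1 h, and 40, 30.97 and 40.2 tags in KO at 18 h (log2 difference 2.23 ± 0.09, adjusted p = 1.2e-10). H3K27ac was present there at 18 h in both genotypes, at 60.9, 72.3 and 68.4 tags in WT and 75.14, 134.2 and 136.2 in KO. The groups at 0 show no spread, which lowers the SE and p-value of the Pol II difference at this region. In an intron of Nid1, a basement membrane protein gene, Pol II was likewise 0 in all libraries but the KO 18 h ones, at 34.8, 31.6 and 35.3 tags. At the promoter of Gm4841, whose region lay 311 bp from the start, Pol II was 15.01, 15.95 and 15.32 tags in WT and 124.9, 105.7 and 108.3 in KO at 18 h. Upstream of Flvcr2 it was 0, 29.83 and 17.07 tags in WT and 126.1, 154.4 and 44.59 in KO, and the spread between replicates was wide. The Gm4841 and Flvcr2 regions lay under Pol II domains more than 2 times their own width.

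In the other direction, Pol II at the region nearest to Vrk2 was 85.4, 92.8 and 87.79 tags in WT at 18 h and 0 in all other groups, KO at 18 h included (log2 difference -3.30 ± 0.08, adjusted p = 5.0e-13). At the Trim5 region nearest to Trim34a it was 123.6, 124.7 and 126 tags in WT at 18 h and 0 in all 9 KO libraries (-3.75 ± 0.14, adjusted p = 7.1e-11). Pol II there was already at 9.075, 19.93 and 12.04 tags in WT at 0 h and at 6.61, 11.16 and 6.907 at 1 h. The genotypes thus did not overlap there before 18 h. This region lay under a Pol II domain more than 2 times its own width. Both Pol II and H3K27ac were at 0 in all KO libraries at the Vrk2 and Trim34a regions. The inputs, made without antibody, differed there in the same direction, with 57.03 tags at the Vrk2 region and 27.73 at the Trim34a region in the WT 18 h input and 0 at both in the KO 18 h input, and the part of this in the results was not tested. At a region nearest to Gm5294 the genotypes did not overlap before LPS either, with 39.23, 28.09 and 22.88 tags of Pol II in KO and 124, 132.7 and 122.7 in WT. At 18 h it was 0 in all KO replicates and 50.21, 77.03 and 95.71 in WT (-3.04 ± 0.23), under a Pol II domain wider than the region. H3K27ac was found there in all KO 18 h libraries, at 27.82, 10.7 and 8.23 tags. This region holds a match to the Nur77 monomer site, in capitals below; such a match was found in 2.34% of the 1280 regions. Of the 30 regions with this match, Pol II at 18 h was higher in KO at 1 (3.33%), nearest to Lamp5, and lower at 1 (3.33%), the Gm5294 region, and 28 were not called, where 8.32% and 0.800% of the other 1250 were higher and lower.
Gm5294 (chr5:138816043-138816163): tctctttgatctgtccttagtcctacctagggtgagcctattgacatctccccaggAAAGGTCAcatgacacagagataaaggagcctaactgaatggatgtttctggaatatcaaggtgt
A region of 640 bp in an intron of Erp27, 1487 bp from its start, had 64.83, 63.19 and 63.42 tags of Pol II in WT at 18 h and 0, 0 and 2.41 in KO, and H3K27ac was found there in no KO library. Before LPS the genotypes did not overlap there either, at 25.88, 35.67 and 34.68 tags in WT and 0, 0 and 6.46 in KO, and the interaction (-0.95) was not called because its size was under 1. The Erp27 region lay under a Pol II domain more than 2 times its own width.

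**Figure D5:**
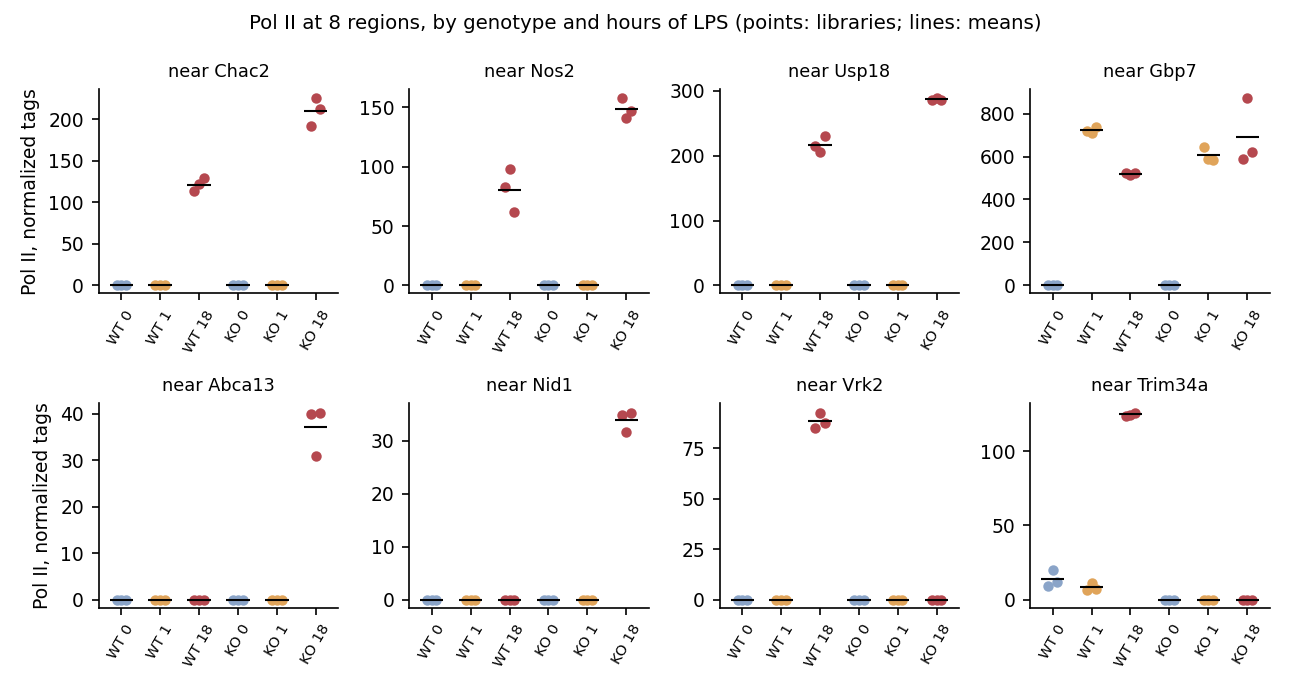
Pol II in normalized tags (y axis) at 8 of the regions in WT and KO at 0, 1 and 18 h of LPS (x axis); points are libraries and lines the means of 3. Pol II is found only at 18 h near Chac2, Nos2 and Usp18 in both genotypes, only in KO at 18 h near Abca13 and Nid1, and at 18 h in WT but not in KO near Vrk2 and Trim34a.

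Regions with repeats of the kind printed above were also those where Pol II differed more often between the genotypes. Of the 81 regions with at least 3 matches to the interferon-type motif, Pol II was higher in KO than WT at 18 h at 31 (38.3%) and lower at 1, the Vrk2 region. Of the other 1199 regions it was higher at 74 (6.17%). Outside the 1280, 176 reproducible regions had at least 3 matches, and 11 of those (6.25%) were higher in KO. Of all 42143 regions tested 1.38% were higher, and of the 41886 with fewer than 3 matches 1.29%. H3K27ac rose in KO from 0 h to 18 h at 77 of the 81 (95.1%), at 71.1% of the other 1199, at 35.2% of the 176 outside the 1280 and at 12.5% of all regions tested. The median level of the 81 at 18 h was 34.8 tags in WT and 52.3 in KO. All 3 WT 18 h libraries had Pol II at 27.2% of the 81 and all 3 KO 18 h libraries at 65.4%. These shares were 40.1% and 45.3% of the other 1199, and 55.8% and 54.9% of all regions tested. By place, 31 of the 81 were intronic and 46 intergenic. Soft-masked repeats took a median of 52.6% of the windows of the 81 regions against 22.0% in the other 1199, and the part of alignment to repeats in this pattern was not tested. This grouping was made after the values were seen and has no test of its own.

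Over whole genes Pol II was higher in KO than in WT at 18 h at 51 of the 1120 nearest genes (4.55%) and lower at 15 (1.34%). Of all genes, 0.927% were higher and 0.84% lower. Among genes with a mean of at least 5 tags, 5.01% of the nearest ones were higher and 1.74% lower, against 1.44% and 1.42%. Cd86 was among the higher ones, with 334.0 ± 40.2 tags in WT and 1224 ± 109 in KO (log2 difference 1.85 ± 0.12, adjusted p = 9.9e-09). So was Slc7a2, with 129.1 ± 34.7 against 547.2 ± 8.26. At the region within Cd86 itself Pol II was 0, 0 and 5.72 tags in WT and 22.97, 29.76 and 16.66 in KO at 18 h. That region lay under a Pol II domain more than 2 times its own width. With Pol II counted only within 500 bp of the gene start, 5 nearest genes were called higher (0.446%, against 0.128% of all genes) and 2 lower.

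Pla2g4a, Resf1, Tmem68 and Gm9817 each had 4 of the regions. The 4 regions nearest to Pla2g4a, the cytosolic phospholipase that frees arachidonic acid, spread over 200997 bp. At the region 4662 bp upstream of it H3K27ac was 28.9, 19.3 and 34 tags in WT and 344.8, 213.4 and 27.04 in KO, where 2 replicates held a region that also covered a neighbour. The 4 regions nearest to Resf1 had 139.5 to 319.2 tags in KO 18 h replicate 1 and 5.54 to 32.7 in the other KO 18 h replicates, beside means of 10.21 to 39.23 in WT. At all 4 of these regions a KO region also covered a neighbouring WT region. One of them also had 88.21 and 88.01 tags in KO 1 h replicates 2 and 3. The 4 nearest to Tmem68 had no Pol II beyond 7.60 tags in any library, and 1 of them was found in no KO library.

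The other regions at listed genes were mostly modest. The second Usp18 region had 23.3, 24.7 and 27.6 tags of H3K27ac in WT and 16.83, 37.02 and 27.49 in KO at 18 h, and the region within Ifit1, an antiviral RNA-binding protein, 15.3, 17.8 and 28.9 in WT and 24.05, 30.78 and 23.26 in KO. The region nearest to Col1a2 was stronger, with 112.4, 127.1 and 112.5 tags in WT and 151.2, 214.9 and 172.5 in KO. The pair nearest to Socs1 had 33.3 to 72 and 32.2 to 37.2 tags in WT. In the intron of Slc7a2 H3K27ac was 26.9, 22.6 and 26.6 tags in WT and 0 in all KO libraries, although Pol II over the gene was higher in KO at 18 h. Regions nearest to Vegfa (54.2, 45.2 and 42.4 tags), Thbs1, Ass1, Gclm, Cd86, Adgre1, Cebpb, Slc2a1, Ncr1 and Cdh5 ranged from 5.94 to 70.8 tags in single WT 18 h libraries. In KO from 0 h to 18 h those of Vegfa, Thbs1 and Ncr1 and the intergenic Cd86 region were called higher. The others, with the region within Cd86, were not called. At the Ass1 region KO had 0, 31.66 and 49.35 tags at 1 h. At the Cdh5 region it had 6.925, 8.18 and 10.19 at 0 h.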

How the data were processed

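The authors trimmed reads with Skewer and aligned them to mm10 with HISAT2 2.1.0. HOMER was then run on each library by itself with no input control. Per the file headers, it took 500 bp windows past a Poisson p of 0.001 and joined those under 1000 bp apart. The signal deposited for each region counts its tags per 10 M tags of the library. The deposited score served only in 1 alternative, which left out regions with low scores. Whole tags could not be recovered, so no count test was run.

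Regions of the 9 WT H3K27ac libraries were merged with bedtools 2.31.1. Every library's tags were shared out over merged regions by overlapping length. Genes were 21897 protein-coding genes of GENCODE vM21, after 54 records with shared symbols were left out, and Pol II of a gene was summed over the gene with 500 bp added at each side. Changes are differences of log2(normalized tags + 10), which understate those of low values, fitted with limma 3.58.1 (R 4.3.3, intensity trend). H3K27ac was fitted on the 9 KO libraries and Pol II on all 18. P-values were adjusted over all 42170 reproducible regions or all genes, and features at 0 in every library were kept as not called. On simulated data with known changes the fits were tested before use. Sequence came from RefSeq GRCm38.p6 through pysam 0.24.0, while pandas 2.3.3 under Python 3.11.15 made the tables and matplotlib 3.10.9 the plots.

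The regions, gene lists and motifs were chosen with earlier results of these data known. Regions named are the 10 with the highest WT 18 h H3K27ac; of those called for Pol II from 0 h to 18 h in WT, the 6 largest rises and 4 largest falls without replicate overlap; the 5 highest that no KO 18 h library held; of those called between genotypes, the 4 largest each way without replicate overlap; those of genes with at least 4 regions; and those nearest to a listed gene. Tags of a region move with how much of it passed the search. A few genes and sequences are not reported here.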

Additional observations from a re-analysis of the deposited data

Results flagged for a closer look

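The input libraries entered none of the tests between groups, and 1 of them stood out at these regions. The WT 18 h input, made without antibody, had a region at 677 of the 1280 (52.9%), whereas the WT 0 h and 1 h inputs had one at 165 and 273 and the KO inputs at 102 to 298. Over all reproducible regions the WT 18 h input had a region at 69.1%, against 17.1% to 65.4% for the other inputs. Among the 677, H3K27ac rose in KO from 0 h to 18 h at 525 (77.5%), and among the 603 without a WT 18 h input region at 405 (67.2%). Pol II was higher in KO than in WT at 57 (8.42%) and 48 (7.96%) of these. What makes this input rich at the regions was not tested.

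The change in Pol II from 0 h to 18 h differed between the genotypes by the interaction test in limma at 12 of the named regions. The change in KO minus that in WT was positive at the regions nearest to Abca13 (2.23 on the log2 scale), Flvcr2 (2.27), Nid1 (2.13), Gm4841 (2.27), Cd86 (1.49), Col1a2 (1.35), Slc7a2 (1.23) and Ctsh (1.04). The change in KO minus that in WT was negative at those nearest to Vrk2 (-3.30), Trim34a (-2.53), Gm5294 (-1.25) and Trim12c (-1.14). At Gm5294 the log2 change was -0.73 in WT and -1.98 in KO. At Trim12c Pol II at 18 h was 509.8 to 546 tags in WT and 520.8 to 524.9 in KO, and at 0 h the genotypes did not overlap, with 51.36 to 63.18 tags in WT and 130.6 to 146.2 in KO.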

How the results depend on the processing

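Of 124 values recomputed under alternatives, over 12 results, 106 stayed within 1.5 times the main value. The number of regions that met the choice was 1571 to 2232 without 1 replicate of every WT group, the highest without replicate 1, and 466 without those that overlap an input region. With input regions left out, 320 and 278 of those 466 rose in KO H3K27ac from 0 h and from 1 h to 18 h (68.7% and 59.7%, against 11.1% and 9.62% of all regions), and for Pol II the numbers called in either direction were 85 (WT 18 h against 0 h, 18.2% against 14.1%), 110 (WT 18 h against 1 h, 23.6% against 18.2%), 139 (KO 18 h against 0 h, 29.8% against 19.0%), 41 (KO against WT at 18 h, 8.80% against 2.41%) and 42 (interaction, 9.01% against 2.54%); fewer regions entered these counts. For KO against WT at 18 h a pseudocount of 1 gave 206 called (16.1% against 4.44%) and a minimum mean of 5 tags 57 (11.5% against 3.37%), and that minimum gave 53 for the interaction (10.7% against 3.61%). Leaving out regions under wide Pol II domains, an alternative chosen after seeing the data, gave 104 for WT (12.0% against 19.7% of all) and 202 for KO (23.2% against 23.8%) from 0 h to 18 h, of which 104 and 201 rose (12.0% against 7.67%, and 23.1% against 8.77%). Counting Pol II within 500 bp of gene starts gave 85, 157, 103 and 7 nearest genes called for WT 18 h against 0 h, WT 18 h against 1 h, KO 18 h against 0 h and KO against WT (7.59%, 14%, 9.20% and 0.625%, against 4.59%, 10.1%, 5.36% and 0.320% of all genes). Leaving out each replicate number in turn gave 707 to 976 and 615 to 946 for KO H3K27ac against 0 h and 1 h (26.2% to 42.2% and 12.5% to 36.4% of all regions), the 946 with 7 lower, and 109 to 124 for Pol II in KO against WT. Deviations of same-numbered libraries from their group means had correlations of -0.358 to 0.107, and the main fits modelled no pairing. The labels do not say whether such libraries share an animal. A fit with a replicate block called 899 and 801 regions for KO H3K27ac and 115 for Pol II in KO against WT. It changed no count by more than 1.5 times. Depth limits weak regions: a window needed 11 to 27 tags in H3K27ac libraries, and the lowest value listed was 3.97 to 6.32 normalized tags, so a region absent from a shallow library may lie below its search limit.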
